A study of Mus musculus with 3 samples.

Results

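The miR-34 and miR-449 microRNAs (miRNAs, small RNAs that silence matching messenger RNAs) were followed in visceral white fat of mice whose high-fat diet was supplemented with EPA (eicosapentaenoic acid, a long-chain omega-3 fat found in fish). The members were all rows of the deposited table whose names begin with miR-34a, miR-34b, miR-34c or miR-449a. There were 8 of them among 1251 mature miRNAs: the 5p and the 3p strand of each of 4 hairpins. The relatives miR-449b and miR-449c were read beside them.

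Small RNA was sequenced from epididymal fat pads of 3 mice of the strain C57BL/6J, titled 1, 3 and 9. All had eaten, for 11 weeks from an age of 5 to 6 weeks, a high-fat diet with 45% of energy from fat, 20% from protein and 35% from carbohydrate. The diet held 6.75% EPA, and the mice were fasted for 4 h before the tissue was taken. This was the only group analysed here. Without a control diet, an effect of EPA or of dietary fat on these miRNAs cannot be read. Beyond the titles and a note of the number of samples per group, nothing states that the samples are separate animals, so p-values cover the spread between the 3 samples only, and this may be technical. Whole fat holds adipocytes, vessels, blood cells and stroma, and more cells of a type and more miRNA per cell cannot be told apart. miRNAs known from adipocytes, though not from them alone, were abundant, with miR-143-3p at 17.10 ± 0.17 and miR-103-3p at 13.81 ± 0.33 log2 units (SD, n = 3). Their levels do not show the share of adipocytes in the tissue. No messenger RNA was measured here, so neither p53 nor any target could be read.

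A miRNA hairpin is cut into 2 strands, and the strand that is kept guides repression through its seed, bases 2 to 8 from the 5′ end. The miR-34 genes are direct transcriptional targets of the tumour suppressor p53, and their 5p strands repress cell cycle and survival genes. miR-34a is broadly expressed, is known to rise in obese fat and liver, and restrains browning and NAD+ metabolism through targets that include Fgfr1, Nampt and Sirt1. The miR-34b and miR-34c pair and the miR-449 cluster are best known from multiciliated epithelia and the testis, where they support the formation of motile cilia and of sperm.

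The 5p strands are shown because they carry the shared seed, printed in capitals, that makes these genes a family. Of the 8 members, 7 matched a RefSeq mature sequence (build GRCm38.p6), and of the relatives both miR-449c strands did. miR-34c-5p and miR-449b are named only.
miR-34a-5p: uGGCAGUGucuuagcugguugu
miR-34b-5p: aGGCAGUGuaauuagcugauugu
miR-449a-5p: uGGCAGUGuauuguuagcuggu
miR-449c-5p: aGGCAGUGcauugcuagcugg
All 4 have the seed GGCAGUG, and among the 1001 listed miRNAs with a matched sequence no other has it. miR-34a-5p and miR-449a-5p share their first 9 bases and, further on, the stretch uuagcuggu of 9 bases. The longest stretch that miR-34a-5p shares with miR-34b-5p after base 8 is 7 bases long.

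The 3p strands are shown because they fall into other seed groups.
miR-34a-3p: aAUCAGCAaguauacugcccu
miR-34b-3p: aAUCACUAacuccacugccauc
miR-34c-3p: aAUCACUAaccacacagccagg
miR-449a-3p: cAGCUAACaugcgacugcucuc
miR-34b-3p and miR-34c-3p have the seed AUCACUA, share their first 10 bases and are the only 2 matched rows with that seed. miR-34a-3p has the seed AUCAGCA and miR-449a-3p the seed AGCUAAC.

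The genes lie at 3 places in the genome (positions from GENCODE M21, on GRCm38; the submitters name the equivalent build mm10). Mir34a covers chr4:150068454-150068555 on the plus strand, and its 3′ end overlaps the exon of Gm37795, an unclassified transcript on the same strand. Mir34c covers chr9:51103034-51103110 and Mir34b chr9:51103562-51103645, both on the minus strand, opposite an intron of Btg4 and with 451 bases between them. Mir449c (chr13:113035983-113036091), Mir449b (chr13:113037419-113037498) and Mir449a (chr13:113037534-113037624) lie on the plus strand in an intron of Cdc20b.

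One member, miR-34a-5p, made up most of the family in this fat, and miR-34c-5p made up nearly all of the rest. Values are the authors' deposited log2 normalized counts, on which the floor of 3.32 stands for a miRNA that was not seen. miR-34a-5p stood at 9.52 in mouse 1, 9.03 in mouse 3 and 9.49 in mouse 9. Mouse 3 was the lowest, and mice 1 and 9 lay close together, with a mean of 9.34 ± 0.28 (SD, n = 3). Taken to the linear scale with the floor subtracted, these are 724, 512 and 708 normalized counts, a mean of 648 ± 118. The strand held rank 101, 115 and 102 of 1251 in mice 1, 3 and 9.

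miR-34c-5p, from the cluster on chromosome 9, was the next member. It stood at 7.83 in mouse 1, 7.64 in mouse 3 and 7.54 in mouse 9, with a mean of 7.67 ± 0.15 (SD, n = 3). Here mouse 1 was the highest and mouse 9 the lowest, an order unlike that of miR-34a-5p. On the linear scale these are 218, 189 and 176 normalized counts, at ranks 154, 160 and 164.

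The SD of miR-34a-5p was larger than that of 116 of the 194 miRNAs whose mean normalized count above the floor was at least 100, and the SD of miR-34c-5p was larger than that of 56. The median SD of those 194 was 0.22, so neither strand stood at an extreme by this measure. The sorted values of the mice were equal at 85 of the top 100 ranks, so such SDs in essence reflect differences of rank.

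The 2 abundant strands did not overlap. The lowest miR-34a-5p value, 9.03 in mouse 3, was above the highest miR-34c-5p value, 7.83 in mouse 1. miR-34a-5p exceeded miR-34c-5p by 1.69, 1.39 and 1.95 log2 units in mice 1, 3 and 9, a mean difference of 1.67 ± 0.28 (SD, n = 3). As a ratio of normalized counts this is 3.32-fold, 2.70-fold and 4.02-fold. The two-sided exact sign-flip permutation p was 0.25, adjusted over 3 such differences 0.25, and 0.25 is the smallest that 3 mice allow. Different sequences can be captured with unequal efficiency in a small RNA library, and that part of the ratio was not tested.

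**Figure D1:**
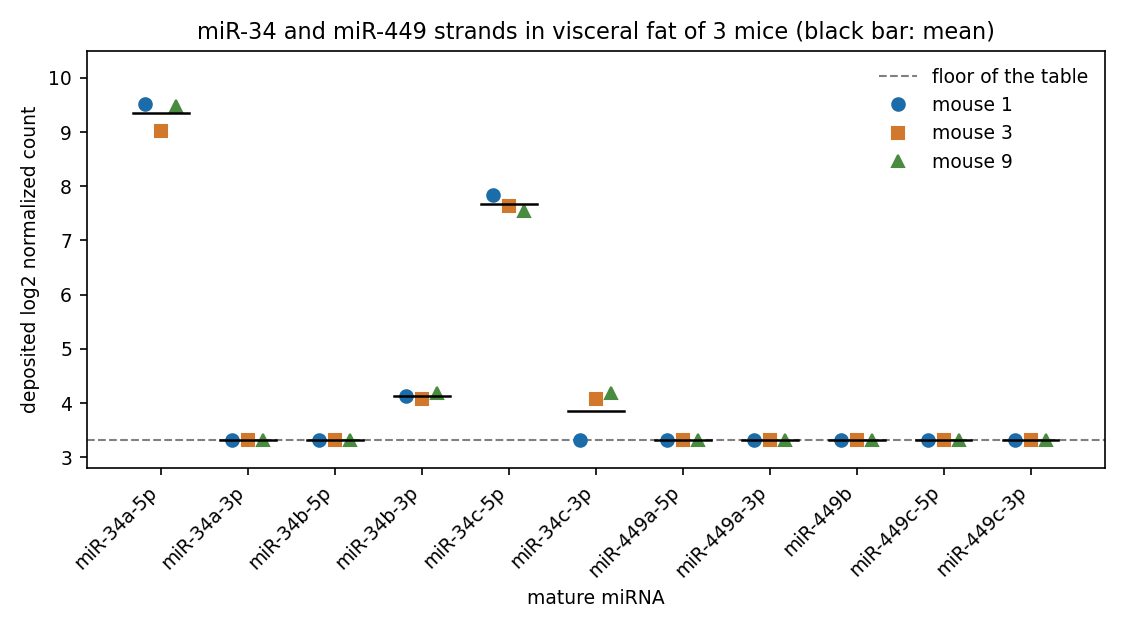
Deposited log2 normalized counts (vertical axis) of the 8 members and 3 strands of the relatives miR-449b and miR-449c, with 1 symbol per mouse, the mean as a black bar and the floor of the table, 3.32, as a dashed line. miR-34a-5p lies between 9.03 and 9.52 and miR-34c-5p between 7.54 and 7.83, while all miR-449 strands lie on the floor.

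The rest of the family was at or just above the floor. miR-34b-3p stood at 4.13, 4.08 and 4.19 in mice 1, 3 and 9, which is 7.48, 6.88 and 8.19 normalized counts above the floor. miR-34c-3p was at the floor in mouse 1 and at 4.08 and 4.19 in mice 3 and 9. In mice 3 and 9 these 2 strands had equal values, each shared by 12 and 9 rows of the table in those mice, and the lowest values above the floor were 3.40, 2.67 and 0.661 normalized counts in mice 1, 3 and 9. Their order was therefore not resolved by the values of mice 3 and 9. It rested on mouse 1 alone, where miR-34b-3p shared its value with 7 rows, itself included.

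Their cluster and family relatives were not seen. miR-34a-3p, miR-34b-5p, miR-449a-5p and miR-449a-3p were at 3.32 in every mouse, as were the relatives miR-449b, miR-449c-5p and miR-449c-3p. Thus 3 of the 8 members stood above the floor in all mice, 1 in 2 mice and 4 in none, where 22.9% of all 1251 miRNAs stood above it in all mice. Strands at the floor were below what these libraries could detect and may still be present. Since the depth of each library is unknown, no upper limit can be given.

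miR-34c-5p exceeded its cluster partner miR-34b-5p by 4.51, 4.32 and 4.22 log2 units in mice 1, 3 and 9, and it exceeded miR-449a-5p by the same amounts, since both are at the floor. The mean difference was 4.35 ± 0.15 (SD, n = 3, higher in 3 of 3 mice), with an exact sign-flip p of 0.25, adjusted 0.25. The size of this difference is set by the floor, so it is not a fold change. It became 7.61 with a pseudocount of 1 and 2.55 with one of 40.

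**Figure D2:**
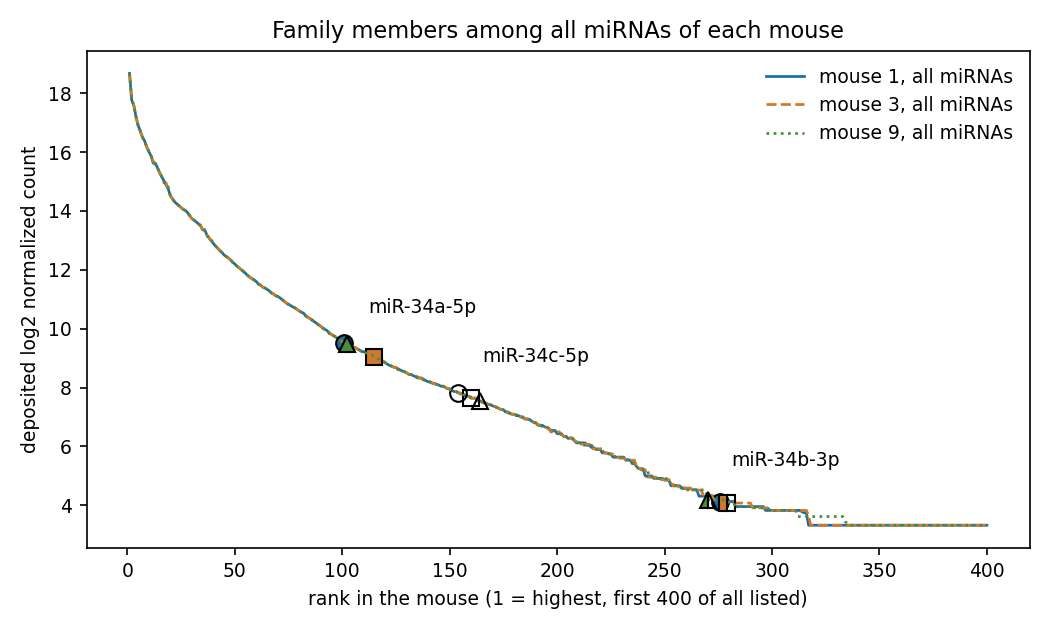
Deposited log2 normalized count (vertical axis) against rank within the mouse (horizontal axis, the first 400 ranks) for all miRNAs, as 1 line per mouse, with circles for mouse 1, squares for mouse 3 and triangles for mouse 9. Filled symbols mark miR-34a-5p at ranks 101 to 115, open symbols miR-34c-5p at ranks 154 to 164 and part-filled symbols miR-34b-3p at ranks 270 to 279, and the 3 lines nearly coincide.

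Summed over the strands with the seed GGCAGUG and miR-34c-5p, which belongs by name, the 5p family held 941, 701 and 884 normalized counts in mice 1, 3 and 9, a mean of 842 ± 125 (SD, n = 3). That is 0.0391%, 0.0292% and 0.0368% of the summed value of a mouse. miR-34a-5p supplied 76.9%, 73.0% and 80.1% of the sum and miR-34c-5p the remaining 23.1%, 27.0% and 19.9%. The lower total of mouse 3 lay mainly in miR-34a-5p. Without miR-34c-5p, the seed GGCAGUG ranked 58 by mean share among 831 seeds of the matched miRNAs, of which 246 had any value above the floor. The 3p seed AUCACUA ranked 179. The 1001 matched rows held 80.2% of the summed value (mean over mice), so these ranks leave out the unmatched miRNAs.

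**Figure D3:**
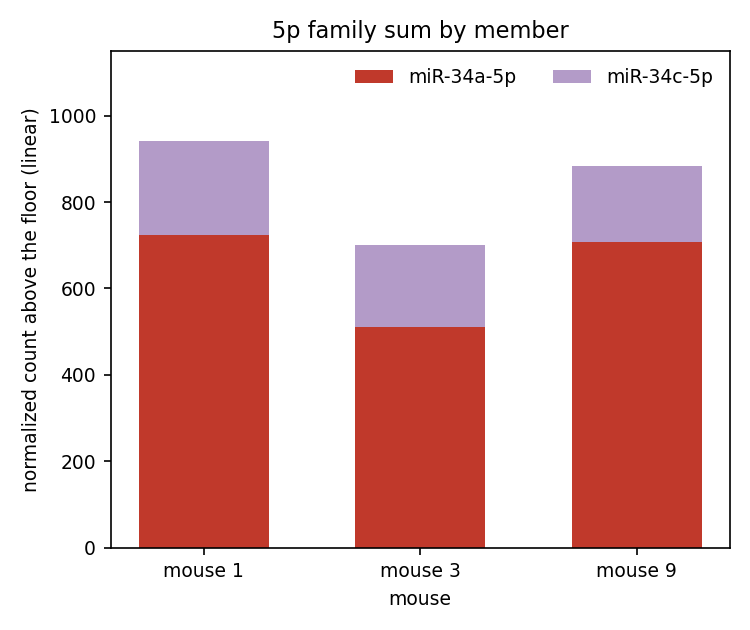
Normalized counts above the floor on a linear scale (vertical axis) of miR-34a-5p and miR-34c-5p, stacked, in each of the 3 mice. The totals are 941, 701 and 884, and miR-34a-5p makes up 73.0% to 80.1% of each bar.

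The 2 hairpins with an abundant strand kept the 5p strand, whereas the one strand seen from miR-34b was the 3p. The hairpin of miR-34a is printed with its seen strand, the 5p, in capitals, and that of miR-34b with its seen strand, the 3p, in capitals, to show that these lie on opposite arms.
Mir34a: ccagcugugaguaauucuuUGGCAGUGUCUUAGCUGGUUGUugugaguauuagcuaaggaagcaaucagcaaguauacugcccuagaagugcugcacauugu
Mir34b: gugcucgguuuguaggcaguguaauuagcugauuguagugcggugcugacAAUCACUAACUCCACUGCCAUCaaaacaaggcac

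For miR-34a the log2 difference of 5p minus 3p was 6.20, 5.71 and 6.17 in mice 1, 3 and 9, a mean of 6.02 (SE 0.16, n = 3). All of it is measured from the floor, where the 3p strand lay. For miR-34c the difference was 4.51, 3.56 and 3.36, a mean of 3.81 (SE 0.35, n = 3), with mouse 1, where the 3p strand was at the floor, the largest.

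Both had the 5p strand higher, in 3 of 3 mice, in a two-sided moderated test of the difference against 0 with limma, adjusted by Benjamini-Hochberg over 129 hairpins. The adjusted p was 2.77e-06 for miR-34a and 0.000118 for miR-34c. With a pseudocount of 1 in place of 10 the differences became 9.32 and 5.55, and with 40 they became 4.09 and 2.38. Of all hairpins tested, 51.2% had the 5p strand higher and 46.5% the 3p strand higher by the same rule. A hairpin entered the test only when its higher strand averaged at least 100 normalized counts. With the lower strand of miR-34a at the floor in all mice and that of miR-34c at or just above it, the direction and the call were largely set by that filter, and nothing is read from these p-values. In size miR-34a ranked 53 and miR-34c ranked 94 of 129, where the median size was 5.14. In 47 of the 129 hairpins, miR-34a among them, 1 strand lay at the floor in all mice, and 22 of those had a larger difference than miR-34a.

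The miR-34b hairpin was too low to be tested. Its 5p minus 3p difference was -0.81, -0.75 and -0.86 in mice 1, 3 and 9, a mean of -0.81 (SE 0.03, n = 3). The 3p strand was thus the higher in 3 of 3 mice, by the few normalized counts given above. Neither miR-449a nor miR-449c had a strand above the floor, so no ratio exists for them.

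**Figure D4:**
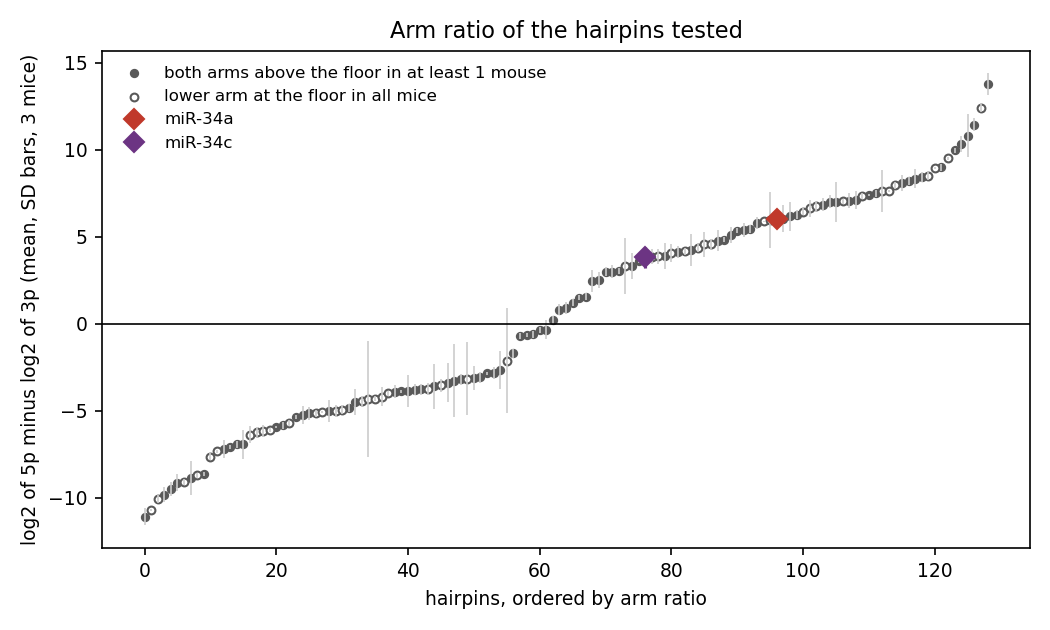
Log2 of the 5p minus log2 of the 3p strand (vertical axis, mean with SD bars over 3 mice) for the 129 hairpins tested, ordered from lowest to highest. Open circles have the lower strand at the floor in all mice, which also holds for miR-34a, and the diamonds show miR-34a at 6.02 and miR-34c at 3.81, both among the hairpins that lean to the 5p strand.

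Mir34b and Mir34c thus led with opposite strands and at unlike levels, although they lie 451 bases apart on 1 strand and are known to share a primary transcript. The lead of Mir34b rested on 7.48, 6.88 and 8.19 normalized counts above the floor in mice 1, 3 and 9. The leading strands, miR-34c-5p and miR-34b-3p, differed by 3.54 log2 units. With a pseudocount of 40, tried on this gap after seeing the data, it was 2.30, and with 1 it was 4.52. As a description of other such neighbours, 26 further pairs of hairpins lay within 10000 bases on 1 strand. Only hairpins with a leading strand above the floor in all mice were counted. The pairs were adjacent among those counted, so hairpins that were left out may lie between them. In 10 of these, 38.5%, the 2 hairpins led with opposite strands. The median difference between their leading strands was 2.41 log2 units, and 8 pairs differed by more than Mir34b and Mir34c. These pairs are not independent. Most of them, and most of those with opposite strands, lie in runs of neighbours from miR-337 to miR-410 that share hairpins. Except for miR-34c, a hairpin counted only when each strand matched exactly 1 mature sequence.

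Other miRNAs reported to be induced by p53 or processed with its help were more abundant than miR-34a-5p in most cases. Of 11 in the list 10 had a row, 8 stood above the floor in all mice and 2 in some. The median of the 10 was 10.22 log2 units, beside 3.32 over all 1251 miRNAs and 8.02 over the 287 seen in all mice. The highest were miR-22-3p (18.37 ± 0.52), miR-143-3p, miR-16-5p (14.32 ± 0.08) and miR-145a-5p (14.20 ± 0.10, SD, n = 3). These have many inputs besides p53.

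miR-192-5p, induced by p53 and best known from liver, gut and kidney, stood at 10.08, 10.34 and 9.83 in mice 1, 3 and 9, above miR-34a-5p in every mouse. Its co-transcribed partner miR-194-5p averaged 7.17 ± 0.28 (SD, n = 3) and was below miR-34c-5p in every mouse. miR-215-5p, which shares its seed with miR-192-5p, was above the floor in mouse 3 alone, at 4.08. In all, 7 of the 10 had a higher mean than miR-34a-5p, as did 105 of the 287 miRNAs seen in all mice.

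miRNAs known, like miR-34a, to restrain brown or beige fat were mostly higher than it. Among 9 such miRNAs the median was 12.43 log2 units. Every mouse had 8 of them above the floor, and 6 had a higher mean than miR-34a-5p. Of all 1251 miRNAs, 287 (22.9%) stood above the floor in all mice, and 105 of those had a higher mean than miR-34a-5p. miR-27b-3p led at 15.07 ± 0.08, and miR-125b-5p averaged 13.82 ± 0.13 and let-7i-5p 13.94 ± 0.28 (SD, n = 3). miR-133a-3p (14.78 ± 2.47) was 11.94 in mouse 1 but 16.38 and 16.02 in mice 3 and 9. miR-133b-3p, of the same list, was likewise low in mouse 1, at 3.83, and stood at 9.49 and 9.65 in mice 3 and 9. The reason for this gap between mice was not tested. The remaining one, miR-155-5p, was at the floor in all mice.

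miRNAs reported, like miR-34a, to be higher in obese fat gave a similar picture. Of 9, 7 were above the floor in all mice, 1 in some and 1, again miR-155-5p, in none, with a median of 10.58. The same 7 were all higher in mean than miR-34a-5p. They were led by miR-21a-5p (13.70 ± 0.14), miR-221-3p (11.62 ± 0.18), miR-222-3p (10.95 ± 0.18) and miR-146b-5p (10.65 ± 0.15, SD, n = 3). The lowest of the 7, miR-223-3p (9.45 ± 0.34), lay within 1 SD of miR-34a-5p (9.34 ± 0.28, SD, n = 3), though higher in each mouse. As background, 22.9% of the 1251 listed rows were seen in every mouse. Of those 287, 105 had a higher mean than miR-34a-5p.

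Because miR-34b, miR-34c and miR-449 are known from ciliated epithelia and testis, and the depot borders the epididymis, markers of those tissues were read beside them. The multiciliated markers listed are the family's own 5p strands, so their levels, given above, say nothing further of such cells. All 15 testis and germ cell miRNAs, such as miR-741-3p, miR-743a-3p, miR-871-3p and miR-880-3p, were at the floor in all mice, so their summed value was 0 in each, where 71.0% of all 1251 miRNAs were at the floor in all mice.

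All 7 epithelial miRNAs were seen, 4 in all mice and 3 in some, where 22.9% of all 1251 miRNAs were seen in all mice. Their sum was 0.0692%, 0.157% and 0.0378% of the total in mice 1, 3 and 9, with miR-203-3p at 9.54 ± 0.27, miR-205-5p at 9.28 ± 1.62, miR-200b-3p at 6.77 ± 2.27 and miR-429-3p at 6.47 ± 2.09 log2 units (SD, n = 3). The sum was highest in mouse 3, as were miR-203-3p, miR-205-5p, miR-429-3p, miR-141-3p and miR-200c-3p. All 7 were lowest in mouse 9. Only miR-200b-3p and miR-200a-3p were instead highest in mouse 1. In mice 1, 3 and 9 they stood at 8.40, 7.73 and 4.19 and at 6.81, 6.08 and 3.32. miR-34c-5p has that order over a far narrower range, and with 3 mice an order is easily shared. The part of epithelial cells in the level of miR-34c-5p was not tested.

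The miRNAs whose 3 values lay nearest to those of miR-34a-5p, by Euclidean distance over the log2 values of the 3 mice, were miR-223-3p (distance 0.25), miR-328-3p (0.30), miR-125b-2-3p (0.46), miR-146a-5p (0.48) and miR-339-5p (0.51). Nearest to miR-34c-5p were miR-5126 (0.16), miR-181d-5p (0.17), miR-339-3p (0.21), miR-652-3p (0.39) and miR-409-3p (0.40). With 3 mice this mostly names miRNAs of like abundance.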

How the data were processed

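Small RNA libraries from visceral fat of 3 mice were sequenced by the study. The values are log2 normalized counts in 1 table deposited by the authors. Per the series' design text, reads went through the Gunaratne pipeline, about 13.8 M per sample were mapped to mouse build mm10, counts were normalized to total usable reads and 40 was added. The lowest deposited log2 value, 3.32, is 10 on the linear scale, so 10 was taken as the floor. At 85 of the top 100 ranks the sorted columns were equal within 1e-06, so differences between mice are in essence differences of rank, and depth is unknown. For the aligner and for the miRNA annotation, neither name nor version was found in the labels.

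Linear values are the power of 2 minus 10. Arm ratios were tested with limma 3.58.1 (R 4.3.3, trended prior) over 129 of 425 hairpins with both strands listed, those whose higher strand had a mean of at least 100, after a trial on simulated data. Calls were made at an adjusted p below 0.05. Named differences used an exact sign-flip test (scipy 1.17.1). Lists are described by counts and medians. The members and lists were chosen with earlier results of these data known. The text names all members, other miRNAs with their seed, up to 4 highest of each list and the 5 nearest miRNAs. miR-103-3p, miR-133b-3p, miR-141-3p, miR-192-5p, miR-194-5p, miR-200a-3p, miR-200c-3p, miR-215-5p and miR-155-5p were named after their values were seen. Python 3.11.15, numpy 2.4.6, pandas 2.3.3 and matplotlib 3.10.9 were used. Alternatives were pseudocounts of 1 and 40, other filters, priors, scaling, thresholds for seen, and leaving out each mouse.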

Additional observations from a re-analysis of the deposited data

How the results depend on the processing

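The direction and the call of both arm ratios held under each alternative that could give a value. With the lower strands at or near the floor this was largely set in advance, so nothing is read from it. The ratio of miR-34a ran from 4.09 (pseudocount 40) to 9.32 (pseudocount 1) and that of miR-34c from 2.38 to 5.55, with limma adjusted p up to 0.00106 and 0.0132. The ratio itself therefore depends on the constant. A filter at a mean of 1000 left 39 hairpins with the 5p and 28 with the 3p strand higher, since fewer hairpins were tested, and left out miR-34a and miR-34c. Without a filter miR-34b had an adjusted p of 0.0249, but 224 of the 425 residual variances were then exactly 0 and limma warns that its prior is unreliable. With pseudocounts of 1 and 40, miR-34b-3p went from 4.13 to 3.09 and 5.57 and miR-34c-3p from 3.86 to 2.06 and 5.49, members at the floor went to 0 and 5.32, and miR-34c-5p went from 7.67 to 7.87 with 40. Leaving out 1 mouse gave 9.26 to 9.50 for miR-34a-5p. The difference of miR-34a-5p and miR-34c-5p ran from 1.54 to 1.82 over its alternatives. It was 1.67 with median-ratio scaling, but a scale factor cancels in a difference within a mouse, apart from the added constant, so this is no check. The family share ran from 0.0330% to 0.0379%. Between 2 and 4 members counted as seen in all mice, 2 when more than 10 or 100 normalized counts were asked for and 4 without mouse 1. No paired analysis was possible because there was only 1 group. The floor hides depth, so strands near it have no counting interval.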
